A study of Mus musculus with 6 samples.

Results

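The protein genes of the cytosolic ribosome were followed in MB49, a line of mouse bladder cancer cells with a Y chromosome, between cells labelled CRISPR Y-KO and cells labelled CRISPR Y-Scr. The members were selected on their summed read counts: they were the protein-coding genes with a ribosomal protein name (Rpl or Rps with a number, the stalk genes Rplp0, Rplp1 and Rplp2, and Rpsa) and at least 1000 counts over the 6 libraries together. This gave 78 genes, 47 of the large subunit and 31 of the small subunit, out of 54532 genes in the table. Of 83 genes whose names fitted, 5 held too few counts: Rpl10l and Rpl39l at 0, Rpl3l at 11, Rpl24 at 261 and Rps10 at 959. Rpl24 and Rps10 each have an exon overlapping another annotated gene on the same strand. How reads in such exons were counted is not known here, so their low counts need not mean low expression. The lowest genes inside the limit were Rpl13a at 14325 counts, Rpl22l1 at 19696 and Rpl22 at 20917, so that no gene lay close to the limit on its upper side. The choice used the level over both groups together, and the genes were taken up with earlier results of these libraries known, so their counts of changes describe these libraries and are not independent support of a direction.

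Y-KO (3 libraries) carries a CRISPR edit that the labels call a knockout of Y. The control, Y-Scr (3 libraries), received a guide RNA that targets no gene. All 6 libraries share the cell line, the sort on a red fluorescent reporter after transduction, the outgrowth of clones from single cells and batch 1. The sources used here do not give the Y-KO guide, nor whether the 3 libraries of a group came from separate clones or cultures, so the p-values rest on a spread that may be technical only. Poly-A RNA was sequenced as stranded bulk libraries, and counts per gene were analysed.

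A ribosome joins a small subunit, which reads the messenger RNA, to a large subunit, which links amino acids, and each protein sits at a fixed place in its subunit. The genes are among the most strongly transcribed in growing cells, and their messengers typically begin with a run of pyrimidines, the 5′ terminal oligopyrimidine (TOP) tract, through which mTOR and LARP1 adjust their translation and stability. Unassembled ribosomal proteins are mostly degraded, apart from the 5S particle of Rpl5, Rpl11 and 5S rRNA, which can bind Mdm2.

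The libraries held 18327877, 15698510 and 17343929 counts in Y-KO and 15907451, 17005652 and 24633158 in Y-Scr. The 4 Y-linked genes used as a check (Ddx3y, Eif2s3y, Kdm5d and Uty) had 0 counts together in each Y-KO library and 6747, 7119 and 8860 in the Y-Scr libraries. Although the tissue label names a tumor, the leukocyte markers Ptprc, Cd3e and Itgam were at 0 in all libraries. The leukocyte list summed to 95.3 to 101 CPM (counts relative to the scaled library total) in Y-KO and 108 to 116 CPM in Y-Scr, nearly all of it Cd68, a lysosomal protein abundant in macrophages, which fell by 0.17 ± 0.06 (edgeR adjusted p = 0.0357), and its part in the results was not tested. The 3 endothelial markers summed to 0.227 to 0.591 CPM in Y-KO and 0.302 to 0.752 in Y-Scr. Of 9 urothelial markers, Upk3a and Krt20 were at 0 and the list summed to 4010 to 4315 CPM in Y-KO and 3355 to 3722 in Y-Scr, mostly Krt8 and Krt18. Only 3 of the 9 were tested, and they went different ways. Krt8 rose by 0.36 ± 0.06 (edgeR adjusted p = 7.14e-05) and Krt18 was not called (0.03 ± 0.07, edgeR adjusted p = 0.773). Gata3, at 7.80 CPM in Y-Scr and 2.81 CPM in Y-KO on average, fell by 1.48 ± 0.21 (edgeR adjusted p = 1.41e-05). The 4 fibroblast markers summed to 17.5 to 19.9 CPM in Y-KO and 11.3 to 15.3 CPM in Y-Scr. Within its group 1 library stood apart: among the 78 genes, Y-Scr 3, which was also the deepest, held the highest CPM of all 6 libraries for 49 genes, while Y-Scr 1 was the lowest of the Y-Scr libraries for 73. The ratio of the highest to the lowest library of a group had a median over the genes of 1.09 in Y-KO and 1.27 in Y-Scr.

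Together the 78 genes took a somewhat smaller share of the reads in Y-KO. They held 8.369, 8.113 and 8.014% of all counts in the Y-KO libraries and 8.368, 9.415 and 9.876% in the Y-Scr libraries, or 8.17% ± 0.183 and 9.22% ± 0.773 (SD, n = 3 each). Y-KO 1 and Y-Scr 1 held nearly the same share, so the groups touched. Within each library the balance between the subunits was tighter than the share. The log2 ratio of summed small-subunit to large-subunit counts was -0.52, -0.52 and -0.53 in Y-KO and -0.44, -0.40 and -0.44 in Y-Scr. All 3 Y-KO libraries lay below all 3 Y-Scr libraries, with means of -0.52 ± 0.0078 and -0.43 ± 0.0213 and a difference of -0.09, and since both sums come from one library this difference does not rest on scaling between libraries. In bulk RNA, fewer messengers per cell and fewer cells carrying them cannot be told apart, and shares say nothing of the total RNA in a cell.

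**Figure D1:**
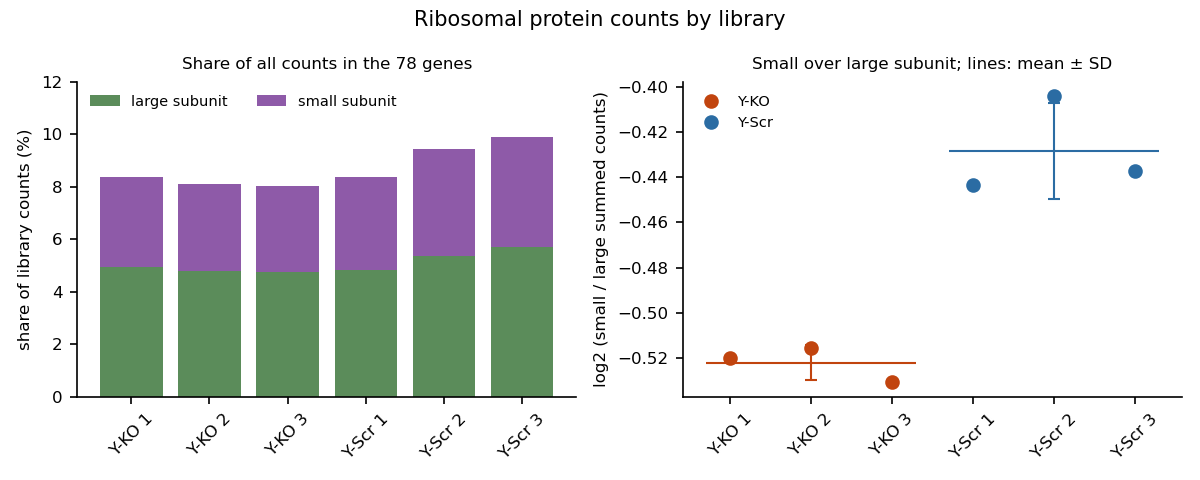
Left, percent of all counts held by the 78 ribosomal protein genes in each library, with large-subunit and small-subunit genes stacked. Right, log2 ratio of summed small-subunit to large-subunit counts in each library (points) with the group mean and SD (lines); the Y-KO libraries lie at -0.52 to -0.53, below the Y-Scr libraries at -0.44 to -0.40, and the right axis does not start at 0.

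Gene by gene, 39 of the 78 fell in Y-KO and 0 rose at an adjusted p under 0.05 (edgeR's quasi-likelihood test, adjusted over 12907 genes), where 23.0% of all genes tested were called lower and 20.7% higher. DESeq2 called 40 lower and 1 higher, where 18.0% and 17.1% of all genes were. Of the large subunit 20 of 47 genes fell, with a median log2 fold change (Y-KO minus Y-Scr) of -0.13, and of the small subunit 19 of 31 fell, with a median of -0.27. The median was -0.20 over the 78 genes and -0.01 over all genes tested. Of the 78 fold changes 59 were negative, and 37 genes had all Y-KO libraries below all Y-Scr libraries, where 27.5% of all genes tested did. No member had the reverse order, which 25.4% of all genes showed. The changes that passed were small, between -0.74 and -0.16 on the log2 scale. Leaving out 1 library at a time left 33 to 47 genes lower, where 18.6 to 22.7% of all genes were, and 47 without Y-Scr 1, where 21.7% were. In these fits 32 of the 78 genes fell every time, 16 of each subunit, as did 16.2% of all genes. The number called higher was 0 or 1 in these fits except without Y-Scr 3, where it was 15, as described below for the shortest genes.

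**Figure D2:**
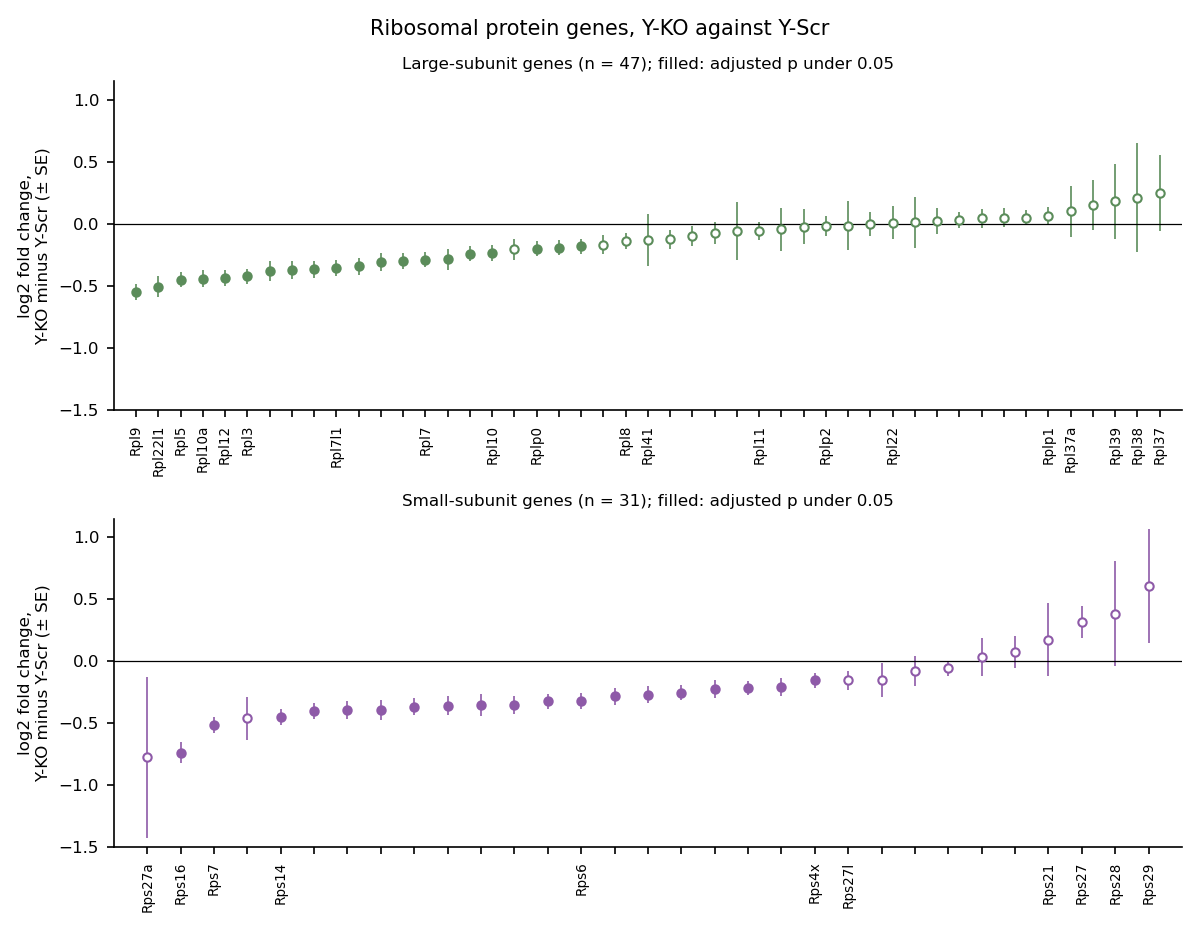
Log2 fold change (Y-KO minus Y-Scr) with its standard error for each of the 47 large-subunit genes (top) and 31 small-subunit genes (bottom), ordered by size, with names for a selection that includes the shortest genes; filled points had an adjusted p under 0.05. The filled points, 20 above and 19 below, all lie under 0, and the widest error bars belong to Rps27a and to genes with a very short coding sequence such as Rps29, Rps28 and Rpl38.

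The largest fall that passed the test was that of Rps16, a small-subunit protein whose tail touches the transfer RNA in the P site (chr7:28350652-28353155, GRCm38). It stood at 999.7, 918 and 948 CPM in Y-KO and 1367, 1591 and 1827 CPM in Y-Scr. The groups were well apart, and Rps16 fell by 0.74 ± 0.09 on the log2 scale (SE, edgeR adjusted p = 6.71e-06), or 40.1%. Its processed pseudogene Rps16-ps2, a near-identical copy that can share reads with it, fell by 0.77 ± 0.08 (edgeR adjusted p = 2.91e-07). Rpl9, a large-subunit protein near the base of the stalk (chr5:65388364-65391444), had 1093, 1093 and 1054 CPM in Y-KO against 1468, 1698 and 1578 CPM in Y-Scr. No library of one group reached the other, and the fall was 0.55 ± 0.06 (edgeR adjusted p = 1.23e-06). Rps7, a small-subunit protein needed to process its rRNA (chr12:28630854-28635953), had 1163, 1100.0 and 1107 CPM in Y-KO and 1531, 1722 and 1568 CPM in Y-Scr. It fell by 0.52 ± 0.06 (edgeR adjusted p = 2.07e-06), again without overlap.

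A further 4 genes, described here by their place in the ribosome, fell by 0.42 to 0.45. Rps14, a platform protein of the small subunit whose human gene lies in the segment lost in 5q- syndrome, averaged 1477 ± 62.8 CPM in Y-KO and 2016 ± 147 CPM in Y-Scr (SD, n = 3 each; edgeR adjusted p = 1.71e-05). Rpl10a, which forms the mobile L1 stalk beside the exit site, had 1277, 1234 and 1231 CPM in Y-KO against 1492, 1773 and 1819.9 CPM in Y-Scr and fell by 0.44 ± 0.07 (edgeR adjusted p = 4.74e-05). Rpl12, at the base of the P stalk, fell by the same 0.44 ± 0.06 (edgeR adjusted p = 2.22e-05), at 1109 ± 40.8 CPM in Y-KO and 1502 ± 107 CPM in Y-Scr (n = 3 each). Rpl3, which reaches towards the peptidyl transferase centre, had 2449.5, 2233 and 2390.5 CPM in Y-KO and 3038, 3339.9 and 3107 CPM in Y-Scr (edgeR adjusted p = 1.82e-05). For all 4 the highest Y-KO library was below the lowest Y-Scr library, and all 4 were still called lower without Y-Scr 3.

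**Figure D3:**
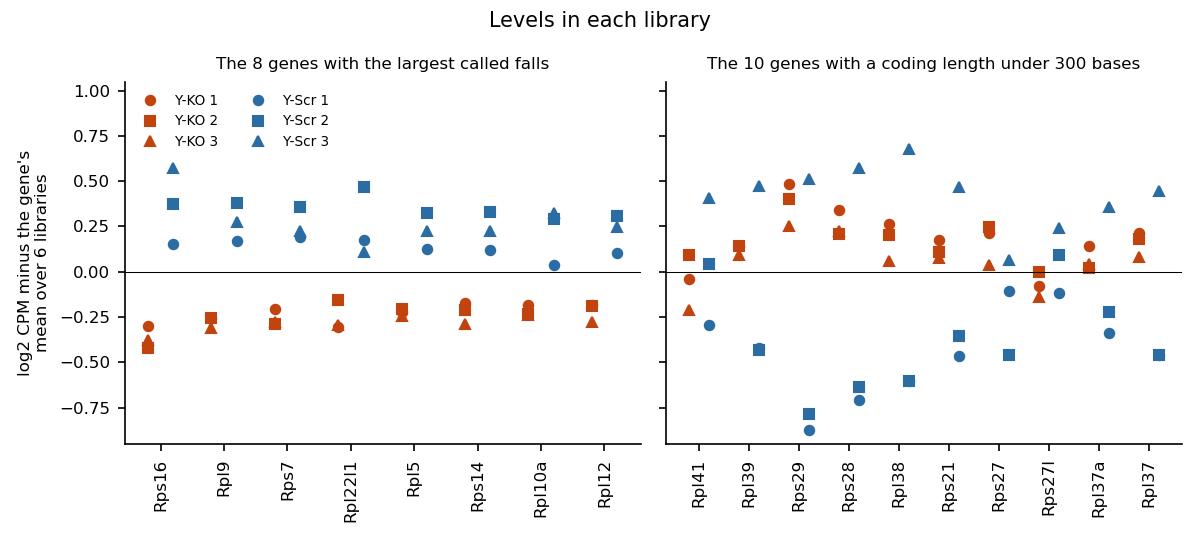
Log2 CPM of each library minus the gene's mean over the 6 libraries, for the 8 genes with the largest falls that passed the test (left) and the 10 genes with a coding length under 300 bases (right); Y-KO in orange, Y-Scr in blue, and the symbol gives the library number. On the left the groups separate in every gene, while on the right Y-Scr 3 lies above Y-Scr 1 and Y-Scr 2 in all 10 genes, with the Y-KO libraries mostly in between.

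Among partners within one structure, some were called and others were not. Of the 5S particle, Rpl5 (chr5:107900502-107909005) had 1502, 1516 and 1478 CPM in Y-KO and 1909, 2189 and 2045 CPM in Y-Scr, and fell by 0.45 ± 0.06 (edgeR adjusted p = 1.01e-05). Its partner Rpl11 had 905, 832 and 813 CPM in Y-KO and 772, 909 and 970.4 CPM in Y-Scr, with the groups interleaved (-0.06 ± 0.08, edgeR adjusted p = 0.585). The difference between Rpl5 and Rpl11 was not tested. An exon of Rpl5 lies opposite Fam69a (2422 counts over the 6 libraries), and since the strand setting of the counting is unknown here, a few of its reads could belong to that gene.

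The lateral stalk recruits the elongation factors, with Rplp0 as its anchor and Rplp1 and Rplp2 as paired arms. Rplp0 had 5085, 4551 and 4758 CPM in Y-KO against 5156, 5874 and 5487 CPM in Y-Scr and fell by 0.20 ± 0.06 (edgeR adjusted p = 0.0161), although Y-KO 1 came close to Y-Scr 1 and the call was lost without Y-KO 2, Y-KO 3 or Y-Scr 2 (edgeR adjusted p = 0.0861 to 0.0968). Rplp1 had 1733, 1697 and 1610.2 CPM in Y-KO and 1444, 1581 and 1793 CPM in Y-Scr (0.07 ± 0.07, edgeR adjusted p = 0.494). Rplp2 had 852, 768 and 799 CPM in Y-KO and 724, 794 and 930.5 CPM in Y-Scr (-0.02 ± 0.08, edgeR adjusted p = 0.877). Both arms overlapped between the groups, with Y-Scr 3 the highest library. Per length, Rplp1 and Rplp0 were the highest of the 78 genes, at 3367 and 2892 RPKM (reads scaled by gene length and depth) in Y-KO and 3218 and 3319 RPKM in Y-Scr, followed by Rpl8, which contacts the peptidyl transferase centre, at 2040.3 RPKM in Y-KO and 2245 RPKM in Y-Scr. Rpl8 was not called (-0.14 ± 0.07, edgeR adjusted p = 0.0956). Over the whole group, the mean level ran from 59.99 to 3293 RPKM with a median of 448, on the deposited gene lengths.

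Rps6, the target of the S6 kinases downstream of mTOR, had 1322, 1291 and 1271 CPM in Y-KO and 1474, 1676 and 1714 CPM in Y-Scr. It fell by 0.32 ± 0.06 (edgeR adjusted p = 4.54e-04) without overlap. Of Rpl4 and Rpl17, whose loops narrow the exit tunnel, Rpl17 fell (-0.29 ± 0.08, edgeR adjusted p = 0.0101), though Y-KO 2 at 763 CPM stood just above Y-Scr 1 at 761 CPM. Rpl4 stood at 2106 ± 12.7 CPM in Y-KO and 2059.8 ± 133 CPM in Y-Scr (n = 3 each, log2 fold change 0.03, edgeR adjusted p = 0.702). Rpl17 is uncertain for another reason, since pseudogenes named for it held 89.1 counts for every 100 of its own.

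Because the groups were made to differ in Y, the X-linked members were read separately. In humans the small-subunit protein S4 is encoded on X and on Y, whereas the mouse has no Y-linked gene for it. Rps4x (chrX:102184941-102189394) had 1191, 1143 and 1184 CPM in Y-KO and 1266, 1299 and 1351 CPM in Y-Scr. The groups did not overlap, but the fall of 0.16 ± 0.06 was the smallest of those called (edgeR adjusted p = 0.0374), and it was no longer called without any of Y-KO 1, Y-KO 2, Y-KO 3, Y-Scr 2 or Y-Scr 3 (edgeR adjusted p = 0.0628 to 0.137). Rpl10, which joins late and is needed for subunit joining, fell by 0.23 ± 0.06 (edgeR adjusted p = 0.00608), at 1181 ± 55.3 CPM in Y-KO and 1389 ± 89.7 CPM in Y-Scr (n = 3 each). The other X-linked members, Rpl36a and Rpl39, were not called. In all 2 of 4 X-linked members fell, and 8 of the 14 on chromosome 7, beside 39 of all 78 members and 23.0% of all genes tested. These shares were near that of the members as a whole.

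Paralogs of core proteins were lower or level. Rpl22l1 (chr3:28805436-28807424) had 145, 160.2 and 146 CPM in Y-KO against 202, 246 and 192 CPM in Y-Scr and fell by 0.51 ± 0.08 (edgeR adjusted p = 1.11e-04). Its parent Rpl22, which in mouse represses Rpl22l1, had 194, 196 and 182 CPM in Y-KO and 157, 178 and 231 CPM in Y-Scr, with the Y-KO libraries inside the Y-Scr range (0.01 ± 0.13, edgeR adjusted p = 0.954; called higher at 0.19 without Y-Scr 3, edgeR adjusted p = 0.0298). Rpl7l1 fell by 0.36 ± 0.06 (edgeR adjusted p = 1.86e-04) and its parent Rpl7, a core large-subunit protein, by 0.29 ± 0.06 (edgeR adjusted p = 8.73e-04). Rps27l, a p53 target, averaged 212 ± 10.3 CPM in Y-KO and 236 ± 28.9 CPM in Y-Scr (-0.15 ± 0.08, edgeR adjusted p = 0.119). Its parent Rps27 was on the other side, at 352, 360.5 and 312 CPM in Y-KO and 283, 221 and 318 CPM in Y-Scr (0.32 ± 0.13, edgeR adjusted p = 0.0796), and DESeq2 called it higher (adjusted p = 0.00461), as did edgeR without Y-KO 3 and without Y-Scr 3 (adjusted p = 0.0399 and 0.0018). Rpl10l, Rpl39l and Rps4l had no counts, and Rpl3l, a muscle form, had 11 in all.

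The largest fold change in size belonged to a gene that was not called. Rps27a, which encodes a small-subunit protein fused to ubiquitin and is named here after its values were seen, had 296, 521 and 416 CPM in Y-KO and 224, 975 and 910.3 CPM in Y-Scr. Y-Scr 1 lay below all other libraries, the groups overlapped, and the difference of -0.78 ± 0.65 (SE) did not pass the test (edgeR adjusted p = 0.414). Of core ribosomal genes with another name, Rack1, the scaffold on the head of the small subunit, fell by 0.33 ± 0.07 (edgeR adjusted p = 5.55e-04), at 2808 ± 163 CPM in Y-KO and 3532 ± 294 CPM in Y-Scr (n = 3 each). Fau, whose product carries ribosomal protein S30, was not called (-0.23 ± 0.12, edgeR adjusted p = 0.155). In humans, the counterparts of 17 members are known Diamond-Blackfan anaemia genes; 7 of these 17 fell (Rps7, Rps15a, Rps24, Rps26, Rpl5, Rpl15 and Rpl26), with a median of -0.17, beside 39 of all 78 members and 23.0% of all genes.

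Among the shortest members the result turned on Y-Scr 3. A coding sequence under 300 bases was found in 10 genes, and 0 of the 10 were called; their median log2 fold change was 0.20. Rps29 (168 coding bases; this and the next examples were chosen after their values were seen), a zinc-binding protein of the small-subunit head, had 311, 293 and 265 CPM in Y-KO and 121, 129 and 317 CPM in Y-Scr. Rps28 (207 bases), near the messenger exit channel, had 297, 271 and 274 CPM in Y-KO and 143, 151 and 349 CPM in Y-Scr. Rpl38 (210 bases), known in mouse for its part in translating Hox messengers, had 274, 263 and 238 CPM in Y-KO and 149.9, 150.2 and 365 CPM in Y-Scr. In each case the Y-KO libraries stood together, well above Y-Scr 1 and Y-Scr 2, and Y-Scr 3 was as high or higher. With all libraries Rps29 was at 0.61 ± 0.46 (edgeR adjusted p = 0.364), and without Y-Scr 3 at 1.21 (edgeR adjusted p = 2.21e-11). The same omission brought Rps28 to 0.93, Rpl38 to 0.78, Rpl37 to 0.62, Rpl39 to 0.55 and Rps21 to 0.53, all called higher. In all, 15 members were called higher without Y-Scr 3, 8 of them with a coding sequence under 300 bases, where 21.2% of all genes tested were, and 35 were called lower, where 22.7% were. The 10 genes together held 0.586, 0.601 and 0.530% of all counts in Y-KO and 0.417, 0.462 and 0.697% in Y-Scr.

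Coding length ordered the members along both differences. Y-Scr 3 minus the mean of Y-Scr 1 and Y-Scr 2, on the log2 scale, had a median of 0.89 over the 10 genes under 300 bases and 0.16 over the 68 longer genes, and across the 78 genes it went down with coding length (Spearman's rho -0.76, Pearson's r -0.71). The Y-KO minus Y-Scr fold change also went down with coding length (rho -0.44, r -0.45). These correlations are across genes that share the same 6 libraries and are not independent, and are given as a description. In 3 classes of coding length, 5 of the 26 shortest genes (up to 396 bases) were called lower, 13 of the 26 in the middle (up to 576 bases) and 21 of the 26 longest, with median fold changes of -0.01, -0.24 and -0.27. The longest class held 4.33, 4.09 and 4.20% of all counts in Y-KO and 4.57, 5.02 and 4.93% in Y-Scr, without overlap. The shortest class held 1.66, 1.68 and 1.56% in Y-KO and 1.40, 1.56 and 1.98% in Y-Scr, where the Y-KO libraries fell inside the Y-Scr range.

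**Figure D4:**
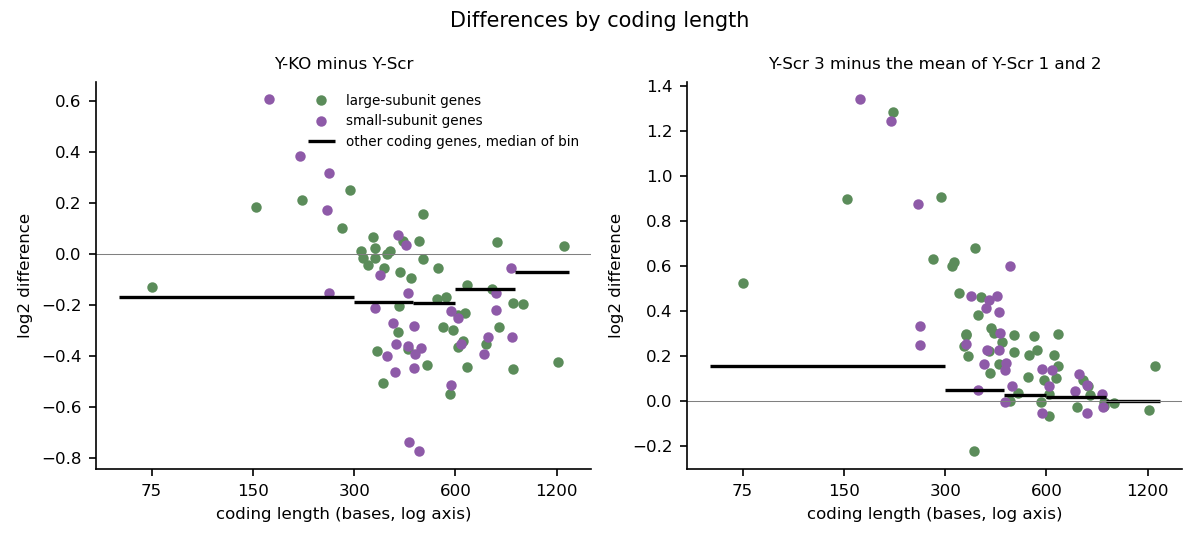
Coding length of each member's principal transcript (log axis) against the log2 difference Y-KO minus Y-Scr (left) and Y-Scr 3 minus the mean of Y-Scr 1 and Y-Scr 2 (right); black bars give the median of all other protein-coding genes in the same length range. Members under 300 bases lie above the bar in both panels, up to 0.61 on the left and 1.34 on the right, and from 450 bases on most members lie below the bar on the left.

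Other coding genes of short length also had negative medians, so the members were set beside genes of like length. Between 450 and 600 coding bases the median was -0.29 for 17 members, 11 of them called lower (64.7%), and -0.19 for 681 other genes, of which 41.9% were called lower. Between 600 and 900 bases it was -0.27 for 20 members, 16 called lower (80.0%), and -0.14 for 1515 other genes, of which 32.9% were called lower. In shorter genes the members were the higher ones. Between 300 and 450 bases, which held 28 members, the median was -0.089 for the members, 10 called lower (35.7%), and -0.19 for 555 other genes, of which 36.2% were called lower. Below 300 bases it was 0.20 for the 10 members and -0.17 for 220 other genes. In these classes of coding length the other genes were not limited by level, so the shares called are not like for like in level. By messenger length, and against coding genes at least as high as the lowest member, 48.5% of 33 members and 48.6% of 107 other genes of 700 to 1200 bases were called lower. Between 300 and 700 bases these shares were 37.0% of 27 members and 31.0% of 29 other genes. From 1200 bases on they were 72.2% of 18 members and 28.4% of 1349 other genes, with medians of -0.26 and 0.028. This class has no upper limit and mixes unlike lengths. Without the level limit, 1200 to 2000 bases held 12 members (83.3% lower, median -0.28) and 1972 other genes (36.2% lower, median -0.15). Messengers of 2000 bases or more held 6 members (50% lower, median -0.22) and 8091 other genes (19.4% lower, median 0.067). When each library's trend over all coding genes on coding length was taken out, 21 members were called lower and 12 higher, where 20.8% and 26.9% of all genes were. With the trend on messenger length taken out, 19 were lower and 18 higher, where 21.6% and 28.3% of all genes were, and 16 of those 18 were large-subunit genes. With the trend on the deposited gene length taken out, 24 were lower and 10 higher, where 20.2% and 24.6% of all genes were, and with gene length and GC content together 23 were lower and 8 higher, where 19.1% and 23.6% were. In these 4 fits the median of the large-subunit genes turned positive, at 0.044 to 0.12, while that of the small-subunit genes was -0.13 to -0.047. The median over all genes also turned positive, at 0.040 to 0.047, from -0.01 in the fit without a trend removed. Only with messenger length did the large-subunit median (0.12) stand well above that of all genes (0.045). Whether length or another property that goes with it moves these values was not tested.

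A core of 16 members was called lower in the fit of all libraries, in each fit without 1 library and in each of the 4 fits with a length trend taken out, where 13.0% of the genes tested in all of these fits were. Of the large subunit these were Rpl3, Rpl5, Rpl7l1, Rpl9, Rpl10a, Rpl12, Rpl26 and Rpl34, and the small-subunit genes among the 16 included Rps3, Rps7, Rps14, Rps16, Rps18, Rps25 and Rpsa. Rps16 fell by 0.48 to 0.51, Rpl9 by 0.30 to 0.43 and Rpl5 by 0.26 to 0.39 across the length fits, all less than in the fit of all libraries. On the other side, 5 members were called higher in all 4 length fits, where 18.4% of the genes tested in them were; Rpl7a, Rpl23, Rpl23a and Rpl31 were among the 5. Rplp1 was called higher in 3 of the fits (0.23, 0.27 and 0.29). Rps6, Rpl7, Rpl10, Rps4x and Rplp0 each lost their call in at least 1 length fit, with differences between -0.11 and 0.12 on the log2 scale where it was lost. Rpl22l1, among the 8 largest falls that passed, lost its call with gene length and GC content (-0.17, edgeR adjusted p = 0.0537) and with messenger length (-0.29, edgeR adjusted p = 0.156). No gene called lower with all libraries was called higher in a length fit.

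**Figure D5:**
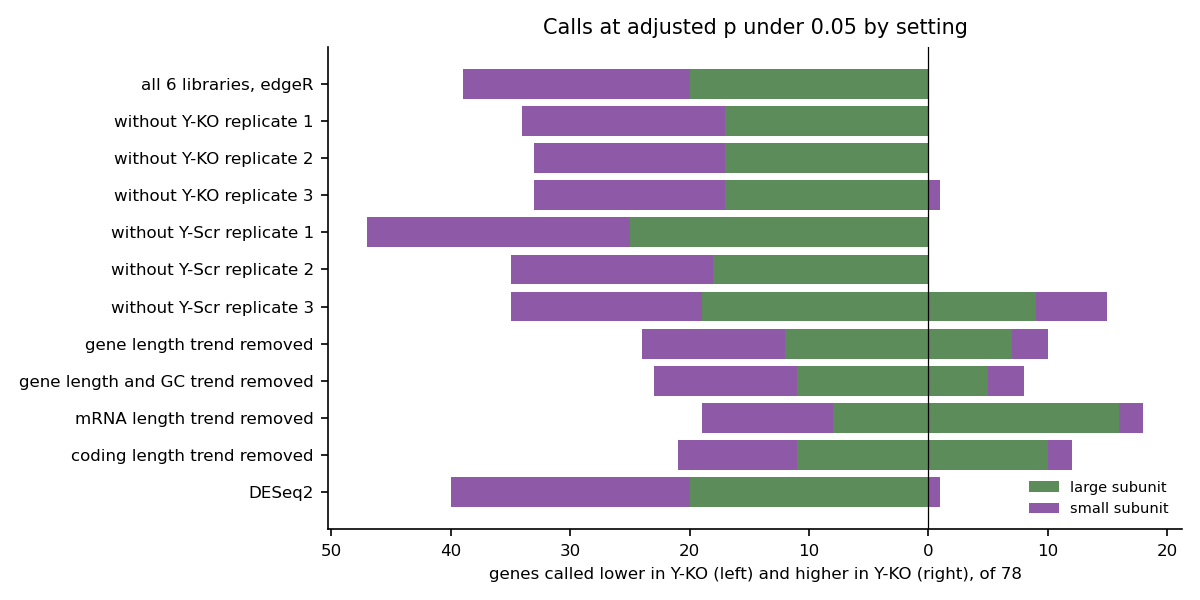
Number of the 78 genes called lower (bars to the left) and higher (bars to the right) with an adjusted p below 0.05, in the fit of all libraries, in each fit without 1 library, with a length trend taken out, and with DESeq2; green is the large and purple the small subunit. The left bars run from 19 to 47 genes, and right bars of 8 to 18 genes appear without Y-Scr 3 and in the fits with a length trend taken out.

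Small-subunit genes had the lower median at each length and in each fit. Called lower were 3 of 10 small-subunit and 2 of 16 large-subunit genes in the shortest class, 7 of 11 and 6 of 15 in the middle class, and 9 of 10 and 12 of 16 in the longest class. The medians for small-subunit and large-subunit genes were -0.12 and 0.01 in the shortest, -0.36 and -0.17 in the middle and -0.29 and -0.26 in the longest class. Over all settings tried, the small-subunit median stayed below the large-subunit median, by 0.09 to 0.22 on the log2 scale. The gap was given no test.

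The start sites of the members were read for the pyrimidine run that marks TOP messengers, to see whether called and uncalled genes differ in it. RefSeq promoters on GRCm38.p6 were matched by symbol for 58 of the 78 members, with 69 start sites, and the 30 bases around each start were searched on the sense strand for an unbroken run of at least 7 pyrimidines (C or T). The windows below, written 5′ to 3′ with the start as base 16 and the longest such run in capitals, were chosen to show members that were called lower with and without a run, then members of short coding length that were not called.
Rps16: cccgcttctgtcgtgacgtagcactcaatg
Rpl22l1: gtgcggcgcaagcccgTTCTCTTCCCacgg
Rpl12: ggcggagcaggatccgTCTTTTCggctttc
Rps6: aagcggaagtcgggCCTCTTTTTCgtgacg
Rpl15: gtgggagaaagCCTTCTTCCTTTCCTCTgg
Rpl38: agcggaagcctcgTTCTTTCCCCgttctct
Rps27: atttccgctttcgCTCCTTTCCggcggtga
Rps28: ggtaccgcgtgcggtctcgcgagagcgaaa
These lie at chr7:28350674-28350703 (plus strand) for Rps16, chr3:28805493-28805522 (plus) for Rpl22l1, chr2:32961697-32961726 (plus) for Rpl12, chr4:86857353-86857382 (minus) for Rps6 and chr14:18270972-18271001 (minus) for Rpl15. The windows of the genes not called lie at chr11:114668565-114668594 (plus) for Rpl38, chr3:90213634-90213663 (minus) for Rps27 and chr17:33824548-33824577 (minus) for Rps28. Where a gene had several start sites, the one with the longest run is shown. The run of Rpl15, a core large-subunit protein that fell by 0.24 ± 0.06 (edgeR adjusted p = 0.00321), is 17 bases long. Rps16, with the largest fall that passed the test, has none of 7 or more in its window.

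A run was found at 33 of 69 member start sites (47.8%) and at 3736 of 20120 start sites of all protein-coding genes in the RefSeq table (18.6%). On the opposite strand the same search found one at 7.2% of member sites and 19.8% of coding sites. Members called lower had it at 16 of 34 start sites (47.1%) and members not called at 17 of 35 (48.6%), so the share was nearly the same on both sides. Large-subunit genes had it at 21 of 41 sites and small-subunit genes at 12 of 28. A match describes the letters in the annotated window, which need not hold the start used in these cells.

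Other genes of the ribosome's supply line were read from lists, each set beside the 23.0% of all genes called lower and 20.7% called higher, and their median of -0.01. Ribosome biogenesis factors leaned the other way from the members: 15 of 33 rose and 4 fell, with a median of 0.16. The lists were not matched for length. Among 8091 coding genes outside the members with a messenger of 2000 bases or more, 29.1% were called higher and 19.4% lower, with a median of 0.067. The messengers of Tcof1, Ncl and Fbl have 4529, 8202 and 1197 bases, and the part of length in these counts was not tested. Tcof1, which aids rRNA gene transcription, rose by 0.69 ± 0.08 (edgeR adjusted p = 1.45e-06), and the nucleolar protein Ncl by 0.56 ± 0.07 (edgeR adjusted p = 1.40e-06). Fbl, the methyltransferase of box C/D particles, fell by 0.42 ± 0.07 (edgeR adjusted p = 5.86e-05). Of 14 rRNA transcription genes 6 rose and 5 fell: the largest subunit of RNA polymerase I, Polr1a, rose by 0.74 ± 0.08 (edgeR adjusted p = 4.16e-07), and Taf1b of its selectivity factor fell by 0.69 ± 0.09 (edgeR adjusted p = 9.12e-06).

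Among 20 other genes known for TOP messengers 7 fell and 6 rose, with a median of -0.11. The elongation factors showed both: Eef1b2 fell by 0.55 ± 0.07 (edgeR adjusted p = 3.83e-06) and Eef1a1 by 0.33 ± 0.07 (edgeR adjusted p = 9.43e-04), while Eef2 rose by 0.27 ± 0.06 (edgeR adjusted p = 0.00119). Of 25 initiation factors 10 fell and 6 rose, from Eif5 at -0.80 ± 0.06 to the scaffold Eif4g1 at 0.71 ± 0.06 (edgeR adjusted p = 7.91e-09 and 4.02e-08). Of 12 genes that control TOP messengers or ribosomal protein synthesis 7 rose and 2 fell, with a median of 0.26. This list was not matched for length either, and the messengers of Larp1, Rheb and Myc have 6617, 1784 and 1365 bases. The TOP-binding protein Larp1 rose by 0.43 ± 0.08 (edgeR adjusted p = 2.11e-04), the kinase activator Rheb fell by 0.40 ± 0.06 (edgeR adjusted p = 5.58e-05), and the transcription factor Myc fell by 0.76 ± 0.06 (edgeR adjusted p = 9.35e-09). Dedicated chaperones of ribosomal proteins had 4 of 11 lower and 2 higher. Of 6 genes tied to the 5S particle's p53 branch, 3 fell, among them Cdkn1a by 0.40 ± 0.06 and the 5S loading factor Rpf2 by 0.47 ± 0.07 (edgeR adjusted p = 2.77e-05 and 3.36e-05). The 1 that rose was Trp53, the gene of p53 itself, by 0.30 ± 0.06 (edgeR adjusted p = 8.49e-04).

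Noncoding relatives of the members and the protein genes of the mitochondrial ribosome were also read. Of 9 tested genes that host small nucleolar RNAs in their introns, several of them with TOP starts, 6 fell and 0 rose, with a median of -0.52. Snhg1 fell by 1.00 ± 0.07 (edgeR adjusted p = 2.21e-09), at 109 ± 1.33 CPM in Y-KO and 217 ± 23.9 CPM in Y-Scr (n = 3 each), and Zfas1 by 0.83 ± 0.10 (edgeR adjusted p = 4.25e-05). Mitochondrial ribosomal proteins, which serve a separate ribosome, had 25 of 77 lower (32.5%) and 2 higher, with a median of -0.14, and Mrps35 fell by 0.77 ± 0.08 (edgeR adjusted p = 4.51e-07). Of all genes tested 23.0% were lower and 20.7% higher. This list was not matched for length. In the classes of 500 to 2000 messenger bases, 36.2 to 40.2% of coding genes outside the members were called lower. Of 380 pseudogenes described in the table as ribosomal protein genes, 278 of them named for a parent gene, 174 had a count and 92 were tested. Of the 92, 23 fell (25.0%, near the 23.0% of all genes) and 1 rose, with a median of -0.16. All such pseudogenes together held 3.94, 3.84 and 3.90 counts for every 100 member counts in Y-KO and 4.47, 4.57 and 4.24 in Y-Scr. For Rps10, which missed the limit for membership, pseudogenes named for it held 49104 counts beside 959 of its own, and for the member Rpl21 25979 beside 23503, so the level of these genes cannot be told apart from that of their copies. Adding such counts to the parent genes left 39 members lower and 0 higher. A total of 36 members have an exon overlapping another gene, such as Rpl28 with Ube2s on the opposite strand.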

How the data were processed

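Per the labels' protocols, poly-A RNA of 6 libraries was made into stranded TruSeq libraries. The authors deposited whole-number read counts per gene, without normalization; STAR 2.5.2b, featureCounts 1.5.3, Trimmomatic 0.39, DESeq2 and the builds GRCm39 and mm39 are named per the submitters' processing notes, while strand and multi-mapping settings are not given in the sources used here. The deposited coordinates equalled GENCODE M21 (GRCm38) for 53462 of 54409 shared genes (98.3%), so GRCm38 is given. Here edgeR 4.0.16 in R 4.3.3 was run on these counts (TMM, filterByExpr, robust quasi-likelihood fit on group, Benjamini-Hochberg over 12907 genes, threshold 0.05). CPM uses TMM-scaled library sizes, and RPKM the gene_length deposited by the authors. Coding and messenger lengths are those of the principal transcript. Alternatives were other scalings, DESeq2 1.42.0, limma-voom (limma 3.58.1), other filters, a block on replicate number, omission of each library, and each library's trend on a length (natural splines, 4 degrees of freedom) removed; the fits on messenger and coding length and with pseudogenes added were chosen after seeing the data. The fit was tested on simulated data. Members and lists were chosen with earlier results of these data known. Named genes were the 8 largest falls that passed, members without overlap changed by at least 0.5, paralogs with their parents, the 5S particle, the stalk, Rps6, the 3 highest by RPKM and up to 4 genes per list; no rise passed. Other genes named were chosen after their values were seen. Replicate pairs differed by more than counting noise (chi-square over its degrees of freedom between 3.44 and 14.8). A few single genes are not reported here.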

Additional observations from a re-analysis of the deposited data

How the results depend on the processing

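The fall of the members was the same under RLE and upper-quartile scaling, limma-voom, 1 CPM in 3 libraries, coding genes only and with pseudogenes added (38 to 40 lower, 0 higher). Member limits of 100 and 5000 counts and the omission of paralogs read the same fit, so only the genes counted could change. The limit of 5000 kept the same 78 genes, and that of 100 added the uncalled Rpl24 and Rps10 (39 lower in both). Without paralogs 37 were lower. Single higher calls, 1 each, came with DESeq2, without a low-count filter, with the replicate block and without Y-KO 3. Leaving out 1 library gave 33 to 47 lower and 0 to 15 higher calls, medians of -0.21 to -0.02 (large) and -0.34 to -0.24 (small), with 15 higher only without Y-Scr 3. Removing the trend on gene length, gene length and GC content, messenger length and coding length gave 24, 23, 19 and 21 lower and 10, 8, 18 and 12 higher calls, large-subunit medians of 0.047, 0.044, 0.12 and 0.046 and small-subunit medians of -0.13, -0.12, -0.066 and -0.047. The median over all genes in these 4 fits was 0.041, 0.047, 0.045 and 0.040, so a small positive value there is near that of all genes. As the difference of medians the subunit gap was -0.14 in the fit without a trend removed. Signs also turned, in the same order of these 4 fits, for Rplp2 (0.17, 0.10, 0.24, 0.21), Rpl11 (0.090, 0.054, 0.20, 0.16), Rps4x (0.058, 0.12, 0.10, 0.021) and Rps27l (0.068, 0.21, 0.057, 0.070), for Rpl8 (0.087, 0.12 and 0.042, not with GC content), for Rplp0 with gene length (0.014) and messenger length (0.036), and for Rpl10 with GC content (0.044) and messenger length (0.024). Without 1 library, values ranged from -0.096 (Y-Scr 1 out) to 0.19 (Y-Scr 3 out) for Rpl22, -0.089 (Y-Scr 1 out) to 0.087 (Y-Scr 3 out) for Rplp2 and -0.14 (Y-Scr 1 out) to 0.016 (Y-Scr 3 out) for Rpl11. The causes were not tested. Same-numbered libraries did not deviate together (correlations -0.10, -0.07 and -0.03 over 12907 genes), so the numbers do not pair the libraries; the replicate block gave 34 lower and 1 higher. With 3 libraries a group, the standard errors of the short genes reached 0.46; what depth adds to them was not tested.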
